A study of Mus musculus with 24 samples.

Results

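The heart and the skeletal muscle of Trex1-/- mice that had received vehicle were compared, using the 3 samples of heart and the 3 samples of muscle that the labels give as controls, out of the 24 RNA-Seq samples of the series. The mice are on the C57BL/6J background and lack the exonuclease TREX1 in all of their cells. Per the study's methods, dosing began at 1 month of age, and the vehicle was 1% Tween 80 in PBS, injected into the peritoneum, whereas the labels call the same samples untreated. The other samples are the tongue and stomach of the same kind of mouse and all 4 tissues after SN-011, an antagonist of STING. SN-011 was given daily at 10 mg/kg for 2 weeks per the study's methods, whereas the labels give a lower dose, fewer doses a week and more weeks. All of the mice were Trex1-/-, so a level given here is that of a mutant tissue, and the normal difference between heart and muscle and any part that the missing TREX1 adds to it cannot be told apart. The labels do not say which skeletal muscle was taken, or which chambers of the heart.

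Heart and skeletal muscle are both striated and share the plan of the sarcomere, but they build it from different genes. Cardiomyocytes use the alpha myosin heavy chain, cardiac troponins and the calcium release channel RYR2, and need calcium to enter at every beat through CaV1.2. Fibres of skeletal muscle use their own myosins and troponins, each in a fast and a slow form, and RYR1, which is opened by the voltage sensor CaV1.1. Without TREX1, DNA in the cytosol is sensed by cGAS, whose product cGAMP activates STING. STING signals through TBK1 and IRF3 to type I interferon, and interferon acts on its receptor and on factors such as STAT2 and IRF9 to raise the interferon-stimulated genes. Trex1-/- mice are known for inflammation of the heart.

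The total count per sample was 14392199 to 18195127, and 3 counts, taken as the smallest level that can be shown, were worth 0.127 to 0.250 CPM (CPM are counts scaled to the TMM-corrected library size), which takes only counting error into account. The 10 genes with the most counts took 23.8% to 25.6% of the counts of muscle samples and 11.01% to 14.96% of those of heart samples. TMM scaling, which corrects for such a gap in composition, set factors of 1.31 to 1.38 in the heart and 0.727 to 0.763 in the muscle. Without it, the median log2 fold change of all genes moved from 0.05 to 0.91, a shift of 0.863 that all genes share. Fold changes are on the TMM scale unless stated. Sample 1 of each tissue had counts of the X-linked Xist and almost none of the Y-linked Ddx3y, and samples 2 and 3 the reverse. Trex1 had 0 counts in the 6 samples, and since Atrip lies over it on that strand, these counts do not check the genotype. Whether counting used the strand is not given in the sources used here, so reads of overlapping genes on opposite strands, such as Myh7 and Mhrt, Hand2 and Hand2os1, Irf7 and Phrf1 or Tap1 and Psmb9, cannot be told apart.

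Between heart and muscle, 16010 genes were tested, of which 4710 were higher in the heart (29.4%) and 4580 were lower (28.6%) at an adjusted p under 0.05 (edgeR, quasi-likelihood fit, p-values adjusted after Benjamini and Hochberg). Of all genes, 30.7% were higher and 29.3% lower with samples of the same number paired, 62.0% and 10.2% with library size alone, and 11.9% and 9.48% where a fold change of at least 2 was required. In all 3 heart samples above all 3 muscle samples were 5445 genes (34.0%), and below them 5219 genes (32.6%). Counts of list members given below are to be read next to these shares of all genes. In lists typical of 1 tissue, members near 0 in the other can pass the filter on low counts through 1 tissue alone. Counts and medians of such lists describe the tissues and test nothing further. Fold changes are log2 values of heart over muscle, so that a positive value is higher in the heart, and adjusted p-values are from this test. The first principal component separated the tissues and held 85.0% of the variance, against 6.66% for the second. Samples of the same tissue correlated at 0.970 to 0.986 and samples of different tissues at 0.797 to 0.824, as Pearson's r across genes.

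The contractile genes were divided between the tissues. Of 16 genes typical of the cardiac sarcomere, 12 were higher in the heart, 2 were lower and 2 did not pass the test, with a median log2 fold change of 5.69, against 0.05 over all genes tested. Of 20 genes of the fast skeletal sarcomere, 19 were tested and all 19 were lower in the heart, with a median of −10.65. Many of these genes were near 0 in the other tissue and passed the filter on low counts through 1 tissue alone, so that these counts and medians describe the tissues and test nothing further. Together, the fast skeletal genes took 18.2% ± 0.74 of all counts in muscle and 0.177% ± 0.024 in heart (SD, n = 3 per group), and the cardiac genes took 4.78% ± 0.68 in heart and 0.631% ± 0.036 in muscle (SD, n = 3 per group).

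Myh6 (ENSMUSG00000040752, chr14:54941921-54966927, GRCm38) encodes the alpha myosin heavy chain, the main motor of the adult mouse heart. It had 13211, 13672 and 9469 CPM in heart samples 1, 2 and 3, and 6.10, 4.24 and 3.74 CPM in the muscle samples (log2 fold change 11.33, SE 0.35, adjusted p = 3.44e-07). The groups were far apart, and heart sample 3 was the lowest of the heart samples. Myh4 (ENSMUSG00000057003, chr11:67238029-67260446) encodes the IIb heavy chain of the fastest fibres. It had 62326, 71233 and 56355 CPM in muscle samples 1, 2 and 3, and 2, 1 and 0 counts in the heart samples, a ratio of muscle to heart of 1388870-fold (95% counting interval 475246 to 6734780). Myh1, the IIx heavy chain, had 5975, 5543 and 5478 CPM in muscle and 2, 0 and 1 counts in heart. Each was thus all but absent from the heart samples. Myh2, the IIa heavy chain, had 1188, 678 and 1508 CPM in muscle and 0.296, 0.266 and 0 CPM in heart. As a share of the RPKM (CPM per kilobase of exon) of 8 myosin heavy chain genes, Myh6 made up 96.9% ± 0.19 in heart, whereas in muscle Myh4 made up 90.7% ± 1.5, Myh1 7.74% ± 0.81 and Myh2 1.40% ± 0.64 (SD, n = 3 per group). Myh7, the beta or slow chain, made up 2.77% ± 0.20 in heart and 0.131% ± 0.094 in muscle (SD, n = 3 per group).

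Troponins T and I and the myosin-binding protein C genes also had a different main form in each tissue. Tnnt2, cardiac troponin T, had 5091, 6087 and 4599 CPM in heart and 12.2, 6.24 and 8.09 CPM in muscle (log2 fold change 9.21, SE 0.34, adjusted p = 7.18e-07). The fast skeletal counterpart Tnnt3 had 2.16, 1.43 and 2.75 CPM in heart and 29562, 29645 and 31461 CPM in muscle (log2 fold change −13.79, SE 0.38, adjusted p = 2.79e-07). Tnnt2 held 99.2% ± 0.13 of troponin T RPKM in heart and Tnnt3 99.8% ± 0.13 in muscle (SD, n = 3 per group). Tnni3, cardiac troponin I, had 2596, 2732 and 2279 CPM in heart and 3.77, 4.41 and 2.40 CPM in muscle (log2 fold change 9.49), and its reads share a strand with Dnaaf3. Tnni2, fast troponin I, had 1.52, 6.11 and 2.62 CPM in heart and 13967, 13761 and 14975 CPM in muscle (log2 fold change −12.04). No heart sample overlapped a muscle sample for any of these genes. Mybpc3, the cardiac myosin-binding protein C, had 2134, 2601 and 1766 CPM in heart and 0.828, 0 and 0.1497 CPM in muscle (log2 fold change 12.63, SE 0.63, adjusted p = 3.17e-06). In muscle, Mybpc2, the fast form, held 84.5% ± 2.4 of the RPKM of this family and Mybpc1, the slow form, 15.5% ± 2.4 (SD, n = 3 per group). Actn3, the alpha-actinin of fast fibres, had 12989, 14142 and 13707 CPM in muscle and 0.550, 0.585 and 0.634 CPM in heart (log2 fold change −14.47, SE 0.27, adjusted p = 1.04e-07).

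The actins were less separate. Actc1, cardiac alpha-actin, had 6589, 6971 and 5219 CPM in heart and 3474, 4774 and 4931 CPM in muscle, and although the samples did not overlap, it did not pass the test (log2 fold change 0.51, SE 0.20, adjusted p = 0.0580). Acta1, skeletal alpha-actin, had 1188, 1018 and 883 CPM in heart and 46449, 58037 and 56065 CPM in muscle (log2 fold change −5.70, SE 0.26, adjusted p = 2.03e-06). Actc1 was thus 85.2% ± 1.3 of the RPKM of both genes in heart and 7.19% ± 0.54 in muscle (SD, n = 3 per group). Both genes are expressed in both tissues, and pairs that map equally to these near-identical coding sequences are not counted. Against the direction of the cardiac list, Myom2, an M-band protein, had 685, 1050.1 and 705 CPM in heart and 2417, 2695 and 2648 CPM in muscle (log2 fold change −1.67). Alpk3, a kinase-like protein of the M-band, had 109.9, 116 and 76.6 CPM in heart and 281, 277 and 273 CPM in muscle (log2 fold change −1.45).

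**Figure D1:**
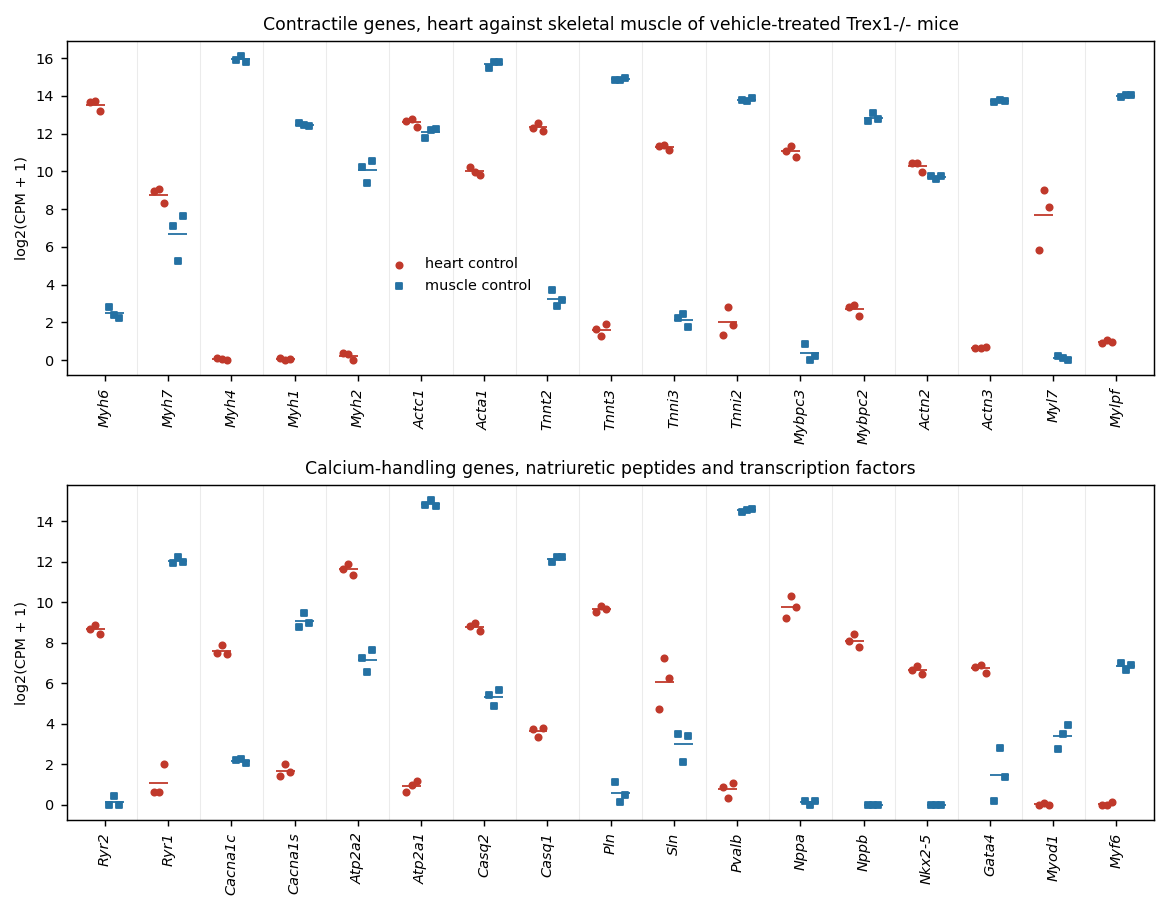
Log2(CPM + 1) of contractile genes (upper panel) and of calcium-handling genes, natriuretic peptides and transcription factors (lower panel) in the 3 heart (red circles) and 3 muscle samples (blue squares), with a line at each mean. Myh6 and Tnnt2 sit high in heart and Myh4, Tnnt3 and Mylpf high in muscle, whereas Actc1 lies close in both.

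Genes that the heart shares with slow fibres were higher in the heart, and they varied among the muscle samples. Of 8 such genes, 7 were higher in heart and Smpx was lower (log2 fold change −0.66, which turned to 0.21 with library size alone). Myl2, the regulatory light chain of ventricle and slow fibre, had 2997, 3538 and 2694 CPM in heart and 152, 22.3 and 152 CPM in muscle (log2 fold change 4.82, SE 0.67, adjusted p = 5.08e-04). Tnnc1, the troponin C of heart and slow fibre, had 1073, 1146 and 829 CPM in heart and 68.2, 13.3 and 73.7 CPM in muscle (log2 fold change 4.30, SE 0.58, adjusted p = 4.43e-04). Myh7 had 498, 527 and 317 CPM in heart and 139, 37.3 and 199 CPM in muscle (log2 fold change 1.84, SE 0.52, adjusted p = 0.0157). Muscle sample 2 was the lowest of the muscle samples for each of these 3 genes. It was also the lowest for the slow skeletal genes Tnnt1, at 115, 27.0 and 126 CPM in muscle against 10.7, 10.2 and 7.91 CPM in heart (log2 fold change −3.22, SE 0.52, adjusted p = 0.00105), and Tnni1, at 68.8, 11.3 and 73.4 CPM in muscle against 1.69, 2.02 and 1.48 CPM in heart (log2 fold change −4.89, SE 0.68, adjusted p = 4.89e-04). Of 6 slow skeletal genes, 5 were lower in heart, 0 were higher and Tpm3 did not pass the test, with a median of −3.34. Summed over these 6 genes, muscle samples 1, 2 and 3 had 2243, 1977 and 1948 CPM, so that sample 2 was not the lowest for this list. Over the 8 genes shared with the heart it was, at 866, 491 and 1094 CPM. Tnnc2, the troponin C of fast fibres, was not tested, since it had 9, 11 and 7 counts in the muscle samples and 0, 0 and 0 in the heart samples, far below the other fast troponins of the same samples. Tnnc2 overlaps Ube2c on the other strand, and the part of the counting in its low value was not tested, so that these counts do not give the level of the gene.

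Sequences before the start of contractile genes are shown for a fast skeletal gene, a cardiac gene and the 2 striated actins, since promoters of such genes are known to hold boxes for MEF2 and for serum response factor. Each is the 250 bases before the RefSeq start in GRCm38.p6, 5′ to 3′ on the strand of the gene. In Myh4 (chr11:67237562-67237811, plus strand) and Mybpc3 (chr2:91117894-91118143, plus strand) capitals mark the MEF2 box, and in Actc1 (chr2:114052876-114053125, minus strand) and Acta1 (chr8:123894776-123895025, minus strand) the CArG box, the site of serum response factor.
Myh4: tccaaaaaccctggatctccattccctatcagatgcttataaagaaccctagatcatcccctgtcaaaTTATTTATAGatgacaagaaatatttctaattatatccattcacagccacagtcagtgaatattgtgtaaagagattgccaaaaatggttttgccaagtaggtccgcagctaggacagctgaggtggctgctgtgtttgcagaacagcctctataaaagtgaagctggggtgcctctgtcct
Mybpc3: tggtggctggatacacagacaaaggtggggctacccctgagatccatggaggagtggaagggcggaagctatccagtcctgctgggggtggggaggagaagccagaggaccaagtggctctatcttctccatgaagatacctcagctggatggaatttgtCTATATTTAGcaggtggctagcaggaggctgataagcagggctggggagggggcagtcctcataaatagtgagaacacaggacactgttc
Actc1: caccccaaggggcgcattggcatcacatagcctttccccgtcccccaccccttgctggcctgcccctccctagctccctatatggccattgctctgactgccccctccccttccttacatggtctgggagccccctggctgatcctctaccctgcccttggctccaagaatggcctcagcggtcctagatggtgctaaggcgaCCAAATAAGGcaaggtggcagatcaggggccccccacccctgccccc
Acta1: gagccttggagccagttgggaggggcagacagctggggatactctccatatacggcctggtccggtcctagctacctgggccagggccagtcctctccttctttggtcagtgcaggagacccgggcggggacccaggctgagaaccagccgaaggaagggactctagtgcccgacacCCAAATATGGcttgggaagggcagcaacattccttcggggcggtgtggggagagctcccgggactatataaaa
The MEF2 boxes began 182 bases before the start of Myh4 and 90 bases before that of Mybpc3, and the CArG boxes 47 and 73 bases before the starts of Actc1 and Acta1. A MEF2 box, on either strand, was found in 3 of 12 fast skeletal genes that had a sequence (25%), in 2 of 15 cardiac sarcomere genes (13.3%) and in 3.42% of 27025 genes of the table. The CArG box was found in 2 of 12 (16.7%), 3 of 15 (20%) and 1.62% of them. CAGCTG, an E-box that reads alike on both strands and can bind the myogenic factors, was found in 8 of 12 fast skeletal genes (66.7%), 2 of 15 cardiac sarcomere genes (13.3%) and 14.7% of all genes. These are matches of letters in short windows and do not show binding.

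The genes of excitation and calcium handling were also divided between the tissues. Of 11 cardiac calcium-handling genes, 9 were higher and 2 lower in heart, and of 14 skeletal ones, 13 were lower and 1, Sln, was higher, with medians of 4.43 and −8.37. Among all genes, 29.4% were higher and 28.6% lower. Several members, such as Ryr2, Pln and Pvalb, were near 0 in 1 tissue, so that these counts and medians describe the tissues and test nothing further. Ryr2 (chr13:11553102-12106945), the calcium release channel of the heart, had 413, 471 and 345 CPM in heart and 0, 0.333 and 0 CPM in muscle (log2 fold change 11.85, SE 0.52, adjusted p = 1.68e-06). Ryr1 (chr7:29003344-29125179), that of skeletal muscle, had 0.550, 0.531 and 3.05 CPM in heart and 3926, 4894 and 4013 CPM in muscle (log2 fold change −11.56, SE 0.75, adjusted p = 1.09e-05). Each made up most of the ryanodine receptor RPKM of its tissue, Ryr2 98.7% ± 0.84 in heart and Ryr1 99.99% ± 0.0051 in muscle (SD, n = 3 per group). Of the voltage-gated channels, Cacna1c (CaV1.2) had 179, 236 and 174 CPM in heart and 3.61, 3.74 and 3.22 CPM in muscle (log2 fold change 5.80). Cacna1s (CaV1.1) had 1.69, 2.98 and 2.07 CPM in heart and 437, 711 and 496 CPM in muscle (log2 fold change −7.94). The tissues did not overlap for either gene.

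Of the calcium pumps of the sarcoplasmic reticulum, Atp2a2 (SERCA2) had 3197, 3778 and 2639 CPM in heart and 151, 94.1 and 199.8 CPM in muscle (log2 fold change 4.43, SE 0.31, adjusted p = 1.71e-05). Atp2a1 (SERCA1) had 0.550, 0.957 and 1.27 CPM in heart and 28822, 33589.5 and 28229 CPM in muscle (log2 fold change −14.98, SE 0.43, adjusted p = 2.99e-07). Pln, phospholamban, which restrains the pump in the heart, had 725, 897 and 821 CPM in heart and 1.20, 0.0832 and 0.374 CPM in muscle (log2 fold change 10.47, SE 0.52, adjusted p = 2.96e-06). Sln, sarcolipin, a related peptide of atrium and slow muscle, had 25.3, 153 and 76.4 CPM in heart and 10.1, 3.25 and 9.58 CPM in muscle (log2 fold change 3.47, SE 0.67, adjusted p = 0.00265), and is the member of the skeletal list that went the other way. Pvalb, the calcium buffer parvalbumin of fast fibres, had 0.804, 0.266 and 1.10 CPM in heart and 22943, 24438 and 25489 CPM in muscle (log2 fold change −14.98, SE 0.51, adjusted p = 4.94e-07). Genes of the couplon that both tissues use were lower in heart: of 10 genes, 8 were lower and 0 higher, with a median of −2.26. Among them, Trdn, triadin, had 142, 186 and 138 CPM in heart and 1302, 1377 and 1516 CPM in muscle (log2 fold change −3.17), and Stim1, the calcium sensor of store-operated entry, had 27.9, 22.8 and 24.2 CPM in heart and 238, 287 and 284 CPM in muscle (log2 fold change −3.43). Hrc, the histidine-rich calcium-binding protein, went against the cardiac list, at 199, 265 and 204 CPM in heart and 1070.2, 1163 and 1116 CPM in muscle (log2 fold change −2.32).

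Of 25 cardiac ion channel and connexin genes, 21 were higher in heart and 3, Abcc9, Kcnj11 and Kcnj2, were lower, with a median of 3.34 (29.4% and 28.6% of all genes were higher and lower). Kcnd2, a potassium channel of the transient outward current, had 9.22, 12.4 and 8.67 CPM in heart and 0, 0 and 0 counts in muscle, at least 43.3-fold higher in heart. Scn4a, the sodium channel of skeletal muscle, had 12.8, 9.51 and 8.88 CPM in heart and 341, 500.4 and 428 CPM in muscle (log2 fold change −5.34), and Clcn1, the chloride channel that steadies the fibre membrane, 1.02, 2.18 and 1.73 CPM and 137, 196 and 166 CPM (log2 fold change −6.67). Heart and muscle samples did not overlap for any of these channels. Of 8 skeletal channel genes tested, 7 were lower in heart, and of 12 genes of the neuromuscular junction, 8 were lower and 1, Etv5, was higher. Chrne, the epsilon subunit of the adult acetylcholine receptor, had 0.254, 0.106 and 0.169 CPM in heart and 16.9, 31.5 and 23.4 CPM in muscle (log2 fold change −6.99). Hcn4, the pacemaker channel of the sinus node, had 9.05, 5.63 and 9.39 CPM in heart and 0.527, 1.25 and 1.72 CPM in muscle (log2 fold change 2.78, SE 0.43, adjusted p = 8.39e-04).

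The transcription factors that specify each muscle were likewise divided. Of 17 cardiac factors tested, 14 were higher in heart, 1 was lower, and Nr2f1 and Nr2f2 did not pass the test (29.4% and 28.6% of all genes were higher and lower). Of these factors, 3 were at 0 in 1 tissue and passed the filter on low counts through the other alone. The counts thus describe the tissues and test nothing further. Nkx2-5 (chr17:26838664-26845009), a homeobox factor of the heart field, had 101, 116 and 86.8 CPM in heart and 0, 0 and 0 counts in muscle, at least 434-fold higher in heart against 3 counts in each muscle sample. Hand2 had 63.9, 62.2 and 29.4 CPM in heart and 0, 0 and 0 counts in muscle, at least 222-fold higher. Gata4 had 109.5, 121 and 91.2 CPM in heart and 0.151, 6.07 and 1.57 CPM in muscle (log2 fold change 5.39, SE 0.74, adjusted p = 4.72e-04), where muscle sample 2 was the highest muscle sample.

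Of 16 skeletal factors, 13 were lower in heart and 1, Tcf21, was higher (28.6% and 29.4% of all genes). Several were at or near 0 in heart, so that this count too describes the tissues and tests nothing further. The median log2 fold change was −6.78, or −5.66 with the 3 genes at 0 in 1 tissue set to their bound. Myf6, the myogenic factor of mature fibres, had 127, 99.3 and 119 CPM in muscle and 0, 0 and 2 counts in heart, a ratio of muscle to heart of 3827-fold (95% counting interval 1059 to 31607). Myod1 had 5.72, 10.2 and 14.4 CPM in muscle and 0, 1 and 0 counts in heart, a ratio of 667-fold (95% counting interval 119 to 26411). Pax7, the factor of satellite cells, had 6.33, 3.83 and 5.77 CPM in muscle and 0, 0 and 0 counts in heart, at least 38.5-fold lower in heart. Tcf21, which marks fibroblasts of the heart and was listed for its role in head muscle, had 19.9, 21.5 and 23.7 CPM in heart and 0, 0 and 0 counts in muscle. The MEF2 factors act in both tissues, and Mef2c was lower in heart, at 41.2, 49.1 and 59.1 CPM against 552, 623 and 639 CPM in muscle (log2 fold change −3.60, SE 0.17, adjusted p = 2.55e-06). Mef2a differed little (log2 fold change −0.31, SE 0.11, adjusted p = 0.0395), its adjusted p was 0.0617 with samples of the same number paired, and its sign turned with library size alone (0.56).

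The natriuretic peptides Nppa and Nppb, hormones of atrium and ventricle that the loaded heart releases, were among the genes with the largest differences. Nppb had 273, 341 and 221 CPM in heart and 0, 0 and 0 counts in muscle, at least 1193-fold higher in heart. Nppa had 592, 1285 and 863 CPM in heart and 0.151, 0 and 0.1497 CPM in muscle (log2 fold change 13.01, SE 0.55, adjusted p = 1.43e-06). The heart samples differed from each other in Nppa and in other genes of the atrium. Myl7, the atrial regulatory light chain, had 57.2, 513 and 279 CPM in heart and 2, 1 and 0 counts in muscle, a ratio of 3429.8-fold (95% counting interval 1173 to 16633). Myl4, the atrial essential light chain, had 336, 721 and 468 CPM in heart and 16.04, 9.82 and 12.4 CPM in muscle (log2 fold change 5.32, SE 0.34, adjusted p = 1.07e-05). Sample 1 was the lowest and sample 2 the highest heart sample for Nppa, Myl7, Myl4 and Sln alike. Sample 2 was also the highest for the ventricular Myl2 and for Myh6 and Tnnt2, but for these genes sample 3 was the lowest. Of 13 atrial genes tested, 11 were higher in heart, 1 was lower and 1 did not pass, with a median of 4.42. The share of atrial tissue in each sample was not measured.

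**Figure D2:**
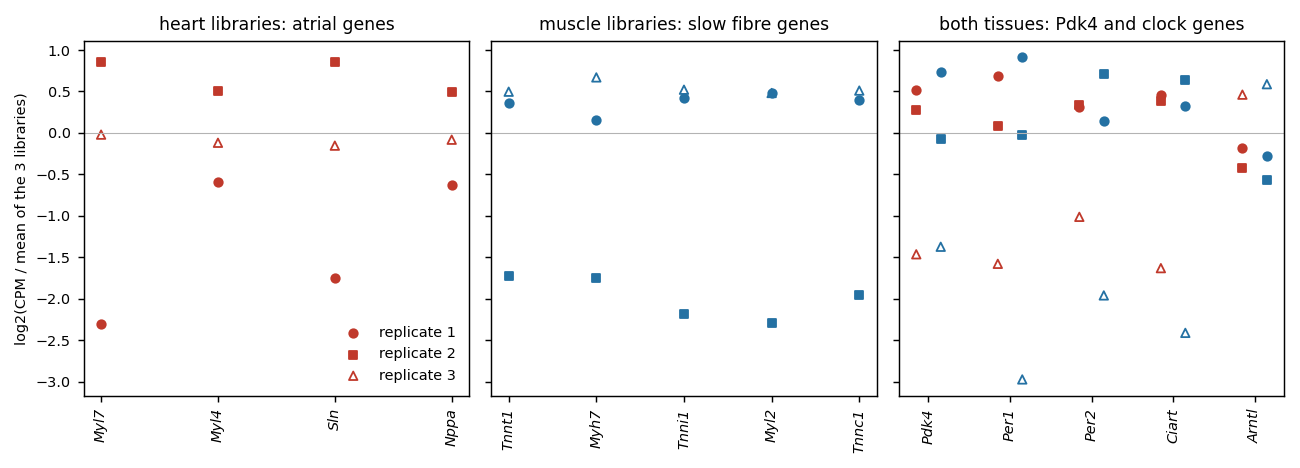
Log2 of CPM over the mean of the 3 samples of a tissue, for atrial genes in heart (left), slow fibre genes in muscle (middle) and Pdk4 with clock genes in both tissues (right; heart in red, muscle in blue). Heart sample 1 is the lowest for the 4 atrial genes shown, muscle sample 2 the lowest for the 5 slow fibre genes shown, and sample 3 the lowest for Pdk4 in both tissues.

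Genes of anaerobic energy supply were higher in muscle. Ampd1, the AMP deaminase of skeletal muscle, had 0, 0.106 and 0.0846 CPM in heart and 1294, 1518 and 1458 CPM in muscle (log2 fold change −14.35, SE 0.38, adjusted p = 2.70e-07). Of 18 glycolytic genes, 11 were lower and 5 higher in heart, with a median of −1.93 (28.6% and 29.4% of all genes were lower and higher), and of 19 genes of glycogen and phosphagen metabolism, 17 were lower and 1, Ckb, was higher, with a median of −3.44. Pygm, muscle glycogen phosphorylase, had 548, 615 and 483 CPM in heart and 9844, 12332 and 11294 CPM in muscle (log2 fold change −4.34, SE 0.20, adjusted p = 2.17e-06). Ckm, muscle creatine kinase, had 345, 441 and 292 CPM in heart and 15534, 20202 and 18494 CPM in muscle (log2 fold change −5.65, SE 0.26, adjusted p = 2.11e-06). Pfkm, muscle phosphofructokinase, had 407, 542 and 382 CPM in heart and 4425, 6017 and 5279 CPM in muscle (log2 fold change −3.56, SE 0.22, adjusted p = 7.87e-06). The tissues did not overlap for any of these 3 genes. The 5 that were higher were Hk1 (log2 fold change 3.57), Pfkp (2.84), Pfkl (1.87), Pgam1 (1.56) and Ldhb (2.10), and genes for other isoforms of the same steps were lower, Hk2 (−1.44), Pfkm (−3.56), Pgam2 (−3.23) and Ldha (−2.86). Ldhb, the subunit of lactate dehydrogenase typical of heart, held 66.3% ± 3.6 of the RPKM of Ldha and Ldhb in heart and 6.03% ± 1.6 in muscle (SD, n = 3 per group). The lactate carriers were divided too. Slc16a1 (MCT1), typical of cells that take up lactate, had 184, 161 and 129.6 CPM in heart and 34.2, 37.8 and 36.3 CPM in muscle (log2 fold change 2.13). Slc16a3 (MCT4), typical of cells that release it, had 14.2, 9.62 and 9.43 CPM in heart and 904, 622 and 887 CPM in muscle (log2 fold change −6.18).

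Genes of fatty acid use differed less. Of 29 genes, 8 were higher in heart, 3 were lower and 18 did not pass the test, with a median of 0.15 (0.10 above that of all genes), next to 29.4% of all genes higher and 28.6% lower. Among the members that were higher, Lpl, lipoprotein lipase, had 2009, 1893 and 1746 CPM in heart and 876, 378 and 517 CPM in muscle (log2 fold change 1.68, SE 0.29, adjusted p = 0.00149), and Fabp3, the fatty acid binding protein of heart, 1749, 1887 and 1276 CPM and 813, 670.2 and 659 CPM (log2 fold change 1.20, SE 0.18, adjusted p = 8.28e-04). The lower genes were Mlycd, Pdk4 and Ucp3. Pdk4, which switches off pyruvate oxidation in fasting, had 773, 654 and 196 CPM in heart and 4857, 2793 and 1131 CPM in muscle (log2 fold change −2.43, SE 0.62, adjusted p = 0.0100), and in both tissues sample 3 was the lowest and sample 1 the highest. Ucp3 had 80.1, 81.6 and 41.0 CPM in heart and 923, 411 and 139 CPM in muscle (log2 fold change −2.86, SE 0.62, adjusted p = 0.00477). With library size alone, 25 genes of the fatty acid list were higher in heart and 2 lower, so that the split depends on the scale.

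The same holds for the mitochondrial genes, whose direction turned with the scale. On the TMM scale, 58 of 73 nuclear genes of the respiratory chain were lower in heart and 4 higher, with a median of −0.68, and with library size alone 28 were higher and 5 lower, with a median of 0.18. For 22 genes of the citric acid cycle, 17 were lower and 1, Idh2, was higher, and the medians were −0.68 and 0.18. Relative to the median of all genes, both lists stood at −0.73 under either scale, as any list keeps its place when all genes shift alike. As a share of all counts, the nuclear respiratory chain genes took 2.88% ± 0.37 in heart and 2.44% ± 0.094 in muscle (SD, n = 3 per group). Cs, citrate synthase, had 478, 595 and 484 CPM in heart and 829.9, 911 and 957 CPM in muscle (log2 fold change −0.79, SE 0.14, adjusted p = 0.00179), and 0.07 as its log2 fold change with library size alone. Idh2, the mitochondrial NADP-dependent isocitrate dehydrogenase, had 568, 803 and 589 CPM in heart and 234, 200.1 and 245 CPM in muscle (log2 fold change 1.53, SE 0.17, adjusted p = 1.63e-04), and was higher under either scale. Of the subunit VIII genes of cytochrome oxidase, Cox8a had 148, 188 and 153 CPM in heart and 87.3, 44.9 and 60.9 CPM in muscle (log2 fold change 1.34), whereas Cox8b, the form of striated muscle, had 168, 269 and 159 CPM and 485, 484 and 534 CPM (log2 fold change −1.33).

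**Figure D3:**
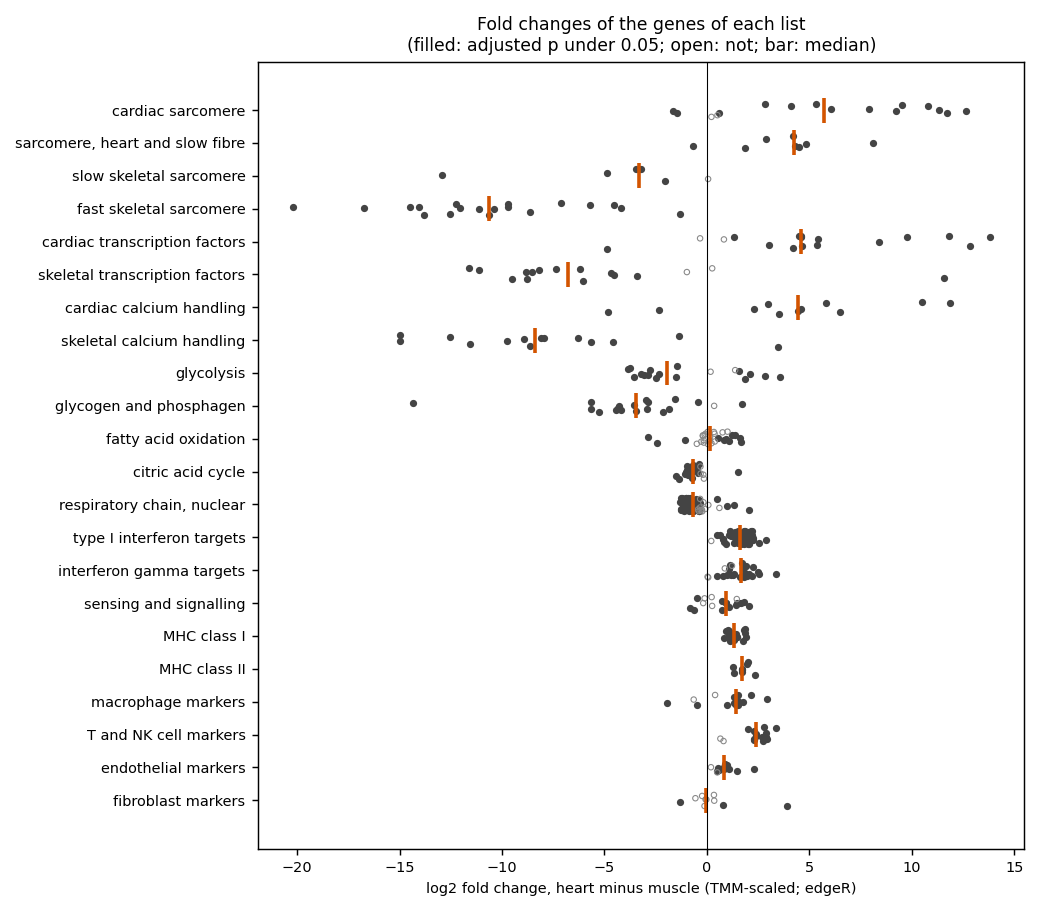
Log2 fold change of heart over muscle (edgeR, TMM scale) for each tested gene of 22 lists, filled where the adjusted p was under 0.05, with the median as a bar. The sarcomere and calcium lists spread to either side with medians from −10.65 to 5.69, and the interferon and antigen presentation lists lie together to the right of 0.

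The interferon-stimulated genes were higher in the heart than in the muscle. Of 50 targets of type I interferon, 49 were higher in heart and 0 lower, and Ifitm2 did not pass the test, with a median log2 fold change of 1.63 against 0.05 over all genes tested. All 3 heart samples lay above all 3 muscle samples for 49 of the 50, against 34.0% of all genes. Of 26 targets of interferon gamma, several of which type I interferon also induces, 22 were higher and 0 lower, with a median of 1.67. With library size alone the medians were 2.50 and 2.53. Relative to the median of all genes the type I list stood at 1.58 under either scale, which follows from the shift that all genes share and tests nothing. Together the 50 genes took 1.16% ± 0.15 of counts in heart and 0.228% ± 0.029 in muscle (SD, n = 3 per group).

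The promoters of Isg15 (chr4:156200819-156201068, minus strand) and Ifit1 (chr19:34640639-34640888, plus strand) are shown for the element by which interferon acts on such genes, the ISRE, with the 250 bases before the RefSeq start in GRCm38.p6, 5′ to 3′ on the strand of the gene. Capitals mark GAAANNGAAA, searched on both strands, or its reverse complement.
Isg15: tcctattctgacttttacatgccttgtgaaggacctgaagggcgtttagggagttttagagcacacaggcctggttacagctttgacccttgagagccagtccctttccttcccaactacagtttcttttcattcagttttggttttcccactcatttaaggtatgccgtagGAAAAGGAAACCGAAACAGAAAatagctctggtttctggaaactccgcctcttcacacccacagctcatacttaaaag
Ifit1: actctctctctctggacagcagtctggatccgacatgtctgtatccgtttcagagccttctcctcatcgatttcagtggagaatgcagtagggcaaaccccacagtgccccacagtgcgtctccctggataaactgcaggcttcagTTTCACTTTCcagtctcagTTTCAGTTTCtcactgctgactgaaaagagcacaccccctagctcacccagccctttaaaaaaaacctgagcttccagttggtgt
Isg15 held 3 overlapping matches, which began 78 to 66 bases before the start, and Ifit1 held 2, which began 104 and 85 bases before it. The motif was found in 14 of 36 type I target genes that had a sequence (38.9%), in 11 of 15 targets of interferon gamma (73.3%), in 0 of 15 cardiac sarcomere genes and 0 of 12 fast skeletal genes, and in 3.46% of 27025 genes. No match means that these letters are not in the window.

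Isg15 (ENSMUSG00000035692), a ubiquitin-like modifier, had 229.8, 230.2 and 261 CPM in heart samples 1, 2 and 3 and 44.5, 45.5 and 62.8 CPM in the muscle samples (log2 fold change 2.24, SE 0.16, adjusted p = 1.97e-05). Ifit1, an RNA-binding inhibitor of translation, had 167, 229 and 256 CPM in heart and 62.3, 57.0 and 82.2 CPM in muscle (log2 fold change 1.70, SE 0.20, adjusted p = 2.24e-04). Ifit2 had 243, 235 and 312 CPM in heart and 32.7, 30.0 and 45.2 CPM in muscle (log2 fold change 2.87, SE 0.20, adjusted p = 1.52e-05). Every heart sample of these 3 genes was above every muscle sample, with sample 3 the highest in each tissue. Ifit3 had 471, 533 and 617 CPM in heart and 192, 208 and 256 CPM in muscle (log2 fold change 1.31, SE 0.16, adjusted p = 2.70e-04), where pairs that also map to Ifit3b are not counted. Oas3, which makes the activator of RNase L, had 151, 114 and 195 CPM in heart and 22.4, 20.2 and 35.1 CPM in muscle (log2 fold change 2.56, SE 0.27, adjusted p = 1.13e-04). Irf7, the factor that amplifies interferon production, had 1049.7, 942 and 1052 CPM in heart and 221, 203 and 297 CPM in muscle (log2 fold change 2.08, SE 0.17, adjusted p = 3.67e-05). The tissues were apart for each of them. Zbp1, a sensor of Z-form nucleic acids, had 188, 136 and 226 CPM in heart and 39.8, 38.3 and 52.8 CPM in muscle (log2 fold change 2.07, SE 0.21, adjusted p = 1.05e-04). Mlkl, the effector of necroptosis that acts downstream of ZBP1, had 23.6, 17.96 and 22.4 CPM in heart and 8.13, 5.99 and 7.26 CPM in muscle (log2 fold change 1.58, SE 0.18, adjusted p = 2.00e-04). The tissues were apart for these 2 as well. Usp18, which restrains the receptor, had 156, 197 and 195 CPM in heart and 82.9, 80.8 and 81.7 CPM in muscle (log2 fold change 1.16, SE 0.12, adjusted p = 1.33e-04).

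Further members had larger or smaller differences than these. Stat2, a factor that carries the signal of type I interferon, had 146, 161 and 198 CPM in heart and 49.5, 54.3 and 56.9 CPM in muscle (log2 fold change 1.66, SE 0.14, adjusted p = 4.28e-05). Rsad2, the antiviral enzyme viperin, had 184, 169 and 221 CPM in heart and 80.8, 50.3 and 70.4 CPM in muscle (log2 fold change 1.51, SE 0.19, adjusted p = 3.06e-04). In no case did the tissues overlap. Mx1, a GTPase that acts against viruses, had 91.9, 66.7 and 109 CPM in heart and 21.6, 22.3 and 23.5 CPM in muscle (log2 fold change 1.99, SE 0.18, adjusted p = 6.14e-05). Bst2, tetherin, had 358, 352 and 391 CPM in heart and 158, 143 and 203 CPM in muscle (log2 fold change 1.13, SE 0.15, adjusted p = 4.26e-04).

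The chemokines that draw T cells through CXCR3 followed the same direction. Cxcl9 had 295, 214 and 319.8 CPM in heart and 69.6, 63.0 and 93.0 CPM in muscle (log2 fold change 1.88, SE 0.20, adjusted p = 1.41e-04). Cxcl10 had 67.3, 71.9 and 121 CPM in heart and 21.9, 21.6 and 31.3 CPM in muscle (log2 fold change 1.80, SE 0.26, adjusted p = 5.79e-04). Gbp2, a guanylate-binding protein, had 313, 223 and 301 CPM in heart and 58.6, 51.1 and 70.2 CPM in muscle (log2 fold change 2.22, SE 0.18, adjusted p = 3.27e-05). The smallest called difference of the gamma list was that of Iigp1, an immunity-related GTPase, at 526, 636 and 681 CPM in heart and 395, 490.04 and 442 CPM in muscle (log2 fold change 0.48, SE 0.15, adjusted p = 0.0243).

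Antigen presentation genes were all higher in heart, 19 of 19 of class I and 8 of 8 of class II, with medians of 1.34 and 1.70. H2-K1, a class I heavy chain that shares near-identical sequence with its relatives, had 3874, 3466 and 3637 CPM in heart and 1869, 1691 and 1695 CPM in muscle (log2 fold change 1.06, SE 0.14, adjusted p = 3.87e-04). Tap1, the peptide transporter, had 357, 295 and 384 CPM in heart and 104, 85.6 and 98.8 CPM in muscle (log2 fold change 1.85, SE 0.14, adjusted p = 2.78e-05). H2-Aa, a class II chain of antigen-presenting cells, had 810.4, 569.5 and 946 CPM in heart and 194, 191 and 204 CPM in muscle (log2 fold change 1.98, SE 0.19, adjusted p = 7.97e-05). The groups did not overlap for any gene of either list.

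The genes that sense nucleic acids and carry the interferon signal were less uniform. Of 19, 11 were higher in heart, 3 were lower and 5 did not pass the test, with a median of 0.94, next to 29.4% of all genes higher and 28.6% lower. With samples of the same number paired, 12 were higher and 2 lower. Sting1 (listed as Tmem173) had 33.1, 22.4 and 42.0 CPM in heart and 6.18, 8.99 and 8.54 CPM in muscle (log2 fold change 2.04, SE 0.26, adjusted p = 3.07e-04). Cgas had 4.86, 2.23 and 5.92 CPM in heart and 0.527, 1.91 and 2.32 CPM in muscle, with overlapping groups (log2 fold change 1.46, SE 0.56, adjusted p = 0.0538), and its adjusted p was 0.0407 with samples of the same number paired. Ifnar1, a chain of the interferon receptor, had 40.6, 38.3 and 53.8 CPM in heart and 19.2, 24.96 and 24.5 CPM in muscle (log2 fold change 0.95, SE 0.17, adjusted p = 0.00194). The kinase Tbk1 and the factor Irf3, which act between STING and the interferon genes, did not pass the test, with log2 fold changes of 0.23 and 0.25. Mavs, the adaptor of RNA sensing on mitochondria, had 32.2, 32.4 and 29.2 CPM in heart and 51.9, 56.3 and 59.6 CPM in muscle (log2 fold change −0.84, SE 0.11, adjusted p = 4.50e-04), but its log2 fold change was 0.03 with library size alone. Jak1 and Jak2 likewise turned from −0.63 and −0.51 to 0.24 and 0.36, and Jak2 lost its call with the pairing (adjusted p = 0.0568). Of 12 interferon and cytokine genes, 2 passed the filter on low counts and both were higher in heart, Ifng at 1.73, 1.12 and 3.09 CPM in heart and 0.452, 0.749 and 0.898 CPM in muscle (log2 fold change 1.499, SE 0.51, adjusted p = 0.0338), and Tnf at 3.64, 1.59 and 8.50 CPM and 0.0753, 0.749 and 0.824 CPM (log2 fold change 3.06, SE 0.81, adjusted p = 0.0119). Ifnb1 was not tested, with 5, 8 and 4 counts in the heart samples and 0, 1 and 0 in the muscle samples.

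**Figure D4:**
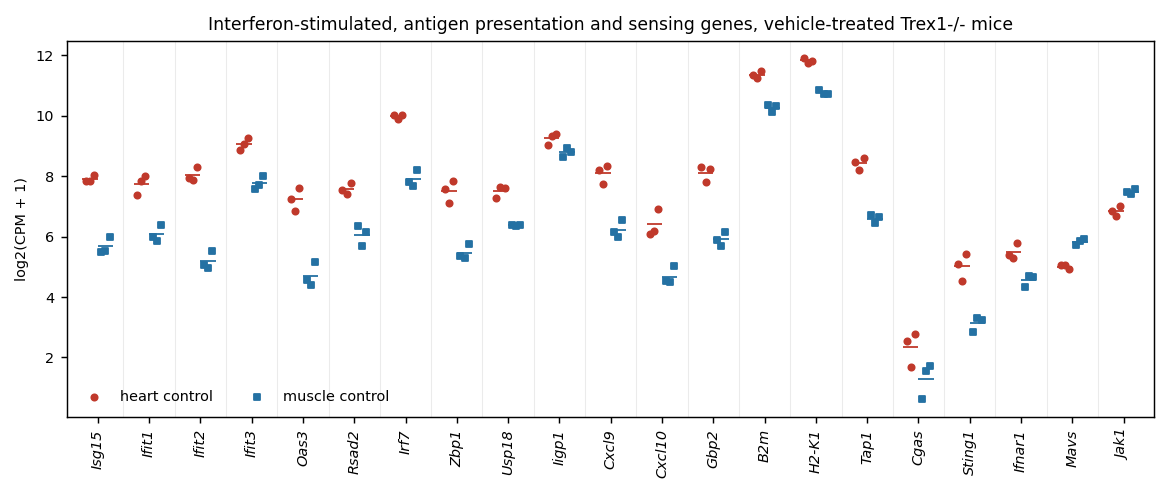
Log2(CPM + 1) of interferon-stimulated, antigen presentation and sensing genes in the 3 heart (red circles) and 3 muscle samples (blue squares), with a line at each mean; the axis does not start at 0. Heart lies above muscle from Isg15 to Tap1, overlaps it for Cgas, and lies below it for Mavs and Jak1 on this scale.

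M7core is the study's list of 159 genes that respond to the cGAS-STING pathway, taken from a module of genes that DNA induced in mouse embryonic fibroblasts. The study singled this module out with macrophages and hearts of Trex1-/- mice, so that the list is not independent evidence of a high level in the heart, and whether the present samples had a part in that choice is not given in the sources used here. Of 157 tested, 125 were higher in heart (29.4% of all genes) and 13 lower (28.6% of all genes), and the median log2 fold change was 1.34. All 41 of its genes that also lie in published interferon modules were higher in heart, with a median of 1.54, and of 116 others 84 were higher and 13 lower, with a median of 1.14. Those others include type I interferon targets of the list used above, such as Isg15, Usp18 and Oasl2. The split therefore does not part genes that interferon induces from genes that it does not. Among the lower genes, Txnip and Tcp11l2 had log2 fold changes of −1.18 and −0.78. With library size alone 2 of the M7core genes were lower. The M7core score, the median CPM over the 159 genes, was 72.8, 71.7 and 89.4 in heart samples 1, 2 and 3 and 34.3, 32.6 and 38.9 in the muscle samples. It was 78.0 ± 9.93 in heart and 35.3 ± 3.22 in muscle (SD, n = 3 per group), a ratio of 2.21, and the groups did not overlap (p = 0.1 by an exact permutation test, two-sided, which with 3 samples in each group can go no lower). Over genes outside the interferon modules the score was 51.5 ± 5.77 and 30.3 ± 2.02 (SD, n = 3 per group), and over those within them 141 ± 26.6 and 47.0 ± 4.87 (SD, n = 3 per group).

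On a scale common to all 24 samples, the score was 89.6 ± 10.3 in heart and 39.8 ± 3.74 in muscle, against 76.8 ± 12.7 in tongue and 63.2 ± 5.42 in stomach controls (SD, n = 3 per group). The muscle samples lay below all samples of the other 3 tissues, whereas heart and tongue overlapped. In mice given SN-011 the score was 60.4, 61.4 and 78.2 in heart and 24.4, 18.02 and 29.7 in muscle. The lowest of these, muscle sample 2, had counts on 11546 genes, against 19798 and 20858 in the other muscle samples given SN-011.

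**Figure D5:**
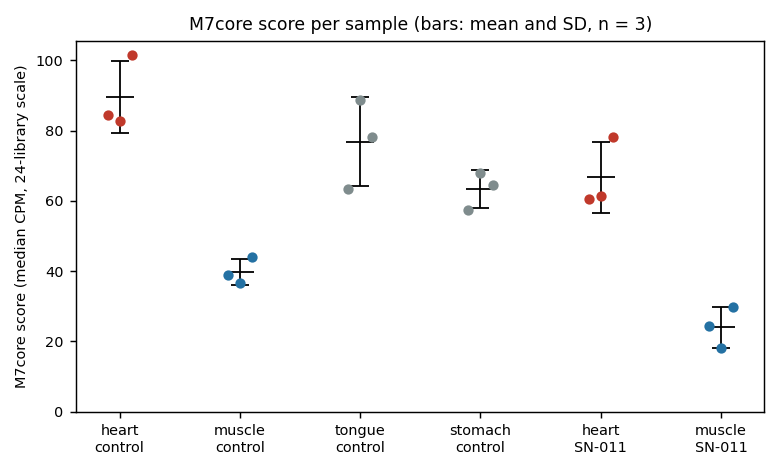
M7core score (median CPM over the list, scaled over 24 samples) of each sample in 6 groups, with mean and SD (n = 3 per group). Muscle controls lie between 36.7 and 44.0, below every heart, tongue and stomach control.

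Markers of immune and other cells moved with the same contrast. In bulk tissue, fewer cells of a type and less RNA per cell cannot be told apart. Among all genes tested, 29.4% were higher in heart and 28.6% lower. Of 15 markers of T and NK cells, 13 were higher in heart and 0 lower, with a median of 2.41, and their summed level was 191 to 370 CPM in heart samples and 52.7 to 59.1 CPM in muscle samples. Cd8a, the coreceptor of cytotoxic T cells, had 29.7, 22.6 and 39.8 CPM in heart and 4.07, 3.25 and 5.17 CPM in muscle (log2 fold change 2.88, SE 0.26, adjusted p = 5.99e-05). Heart sample 2 was the lowest heart sample for Cd8a, as it was for the summed list. Of 15 macrophage markers, 11 were higher and 2 lower, with a median of 1.40, and their summed level was 1903 to 2558 CPM in heart and 905 to 990 CPM in muscle. Ly6c2, of monocytes, had 115, 62.7 and 137 CPM in heart and 11.8, 11.2 and 17.8 CPM in muscle (log2 fold change 2.95, SE 0.32, adjusted p = 1.32e-04). Cd163, a scavenger receptor of resident macrophages, went the other way, at 4.14, 0.850 and 1.90 CPM in heart and 11.5, 7.82 and 7.71 CPM in muscle (log2 fold change −1.96, SE 0.51, adjusted p = 0.0109), and its log2 fold change was −1.09 with library size alone. No marker of either list was at 0 in all samples of a tissue. The part of these cells in the interferon difference was not tested.

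Of 9 markers of B and plasma cells, 5 were higher in heart and 0 lower (29.4% and 28.6% of all genes). Heart sample 3 stood apart, with Ms4a1 (CD20) at 6.26, 2.07 and 45.8 CPM in heart and 0.904, 0.666 and 0.449 CPM in muscle. The median log2 fold change of these markers was 2.82, and 1.16 without heart sample 3. Of 12 endothelial markers, 10 were higher and 0 lower, with a median of 0.84 and summed levels of 1109 to 1348 CPM in heart and 601 to 713 CPM in muscle. Of 10 fibroblast markers, 2 were higher and 1 lower, with a median of −0.05. With library size alone 7 were higher and 0 lower, with a median of 0.82, so that this result depends on the scale. Of 6 markers of the epicardium, 5 were higher in heart, among them Upk3b at 19.9, 19.8 and 43.3 CPM in heart and 0.979, 0.333 and 0.1497 CPM in muscle (log2 fold change 5.80). Adipocyte markers did not pass the test, and Adipoq had 0.508, 0 and 14.3 CPM in heart and 111, 2.00 and 29.9 CPM in muscle. With samples of the same number paired, however, 4 of the 7 adipocyte markers tested were lower in heart. Haemoglobin genes did not pass the test without the pairing either. Of 5 erythroid markers, the haemoglobin genes among them, 1 was higher in heart with the pairing. Set against each marker list within a sample, as a difference of means of log2(CPM + 1), the type I interferon list was higher in heart by 0.56 relative to macrophage markers, 0.67 relative to endothelial markers and 1.27 relative to fibroblast markers, and differed by −0.42 relative to markers of T and NK cells. The difference of −0.42 was close to the SD of 0.40 between the heart samples, and heart sample 2 (3.41) lay within the muscle samples (3.23 to 3.50). For M7core the same differences were 0.06, 0.17, 0.76 and −0.92, of which the first 2 were smaller than the SD of 0.30 and 0.21 between the heart samples.

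The difference between heart and muscle was also read in the samples of mice given SN-011, which are other samples, although 1 fit over the 12 samples gave the spread of both comparisons. There, 12 of 16 cardiac sarcomere genes were higher and 2 lower in heart, all 19 fast skeletal genes were lower, 47 of 50 type I interferon targets were higher and 0 lower, and 110 of 159 M7core genes were higher and 13 lower, where 22.7% of all 16904 genes tested were higher and 20.6% lower. The medians were 5.97, −11.44, 2.04 and 1.53, against 0.26 over all genes. Without muscle sample 2 of that group they were 5.79, −11.58, 1.88 and 1.46, and the counts were 12 and 2, 19 lower, 47 and 0, and 119 and 17, against 29.4% and 27.5% of 17564 genes tested. Whether the tissue difference depended on treatment was tested by the interaction term over 12 samples, and 1 gene of 16904 passed (0.00592%), Cdkal1, while 1263 had an unadjusted p under 0.05. DESeq2 called 158, and edgeR called 52 without muscle sample 2 of the SN-011 group and 27 without muscle control 1. No contractile, calcium-handling or interferon gene of the lists passed in edgeR, which does not show that their differences were equal.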

How the data were processed

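RNA-Seq of 24 Trex1-/- tissue samples in 8 groups (n = 3 per group) was deposited, with 150-nt reads. Per the labels, the deposited raw counts per gene were made with HISAT2 and HTSeq on mm10. The study's methods name hisat2 and featureCounts with unique pairs, and also differ from the labels in the SN-011 schedule. The authors' counts were used as deposited for 54532 genes. Symbols, positions and exon lengths came from GENCODE M21 (54495 IDs matched), and promoter sequences from RefSeq, GRCm38.p6 (27025 genes). RPKM was used for shares within a gene family.

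Genes were kept by filterByExpr (minimum count 10, minimum total 15), scaled by TMM and tested with edgeR 4.0.16 (quasi-likelihood test, prior count 0.125) in R 4.3.3 over the 6 control samples, with Benjamini-Hochberg adjustment and a threshold of 0.05. The test was checked on simulated data in which most genes had the same mean in both tissues. That check does not cover the gap in composition between these tissues, or genes at 0 in 1 of them. A fold "at least" sets a group at 0 to 3 counts per sample, and ratios against 1 to 3 counts carry a 95% interval for counting error. Pairs and reads without molecular identifiers are not independent molecules. DESeq2 1.42.0, limma 3.58.1 (loaded by edgeR), and Python 3.11.15 with scipy 1.17.1 and matplotlib 3.10.9 were also used.

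Genes were named by rule: a fixed set, up to 3 genes per list in each direction with an adjusted p under 0.05, no overlap and a mean of at least 1 CPM, up to 3 that went against their list, and the 8 highest and 8 lowest protein-coding genes overall with a mean of at least 50 CPM. The members and lists were chosen with earlier results of these data known, and Adipoq, Cd163, Cd8a, Cs, Hk2, Irf3, Ly6c2, Ms4a1, Myl4, Pfkl, Pgam1, Tbk1, Tcp11l2, Txnip and Upk3b were named after their values were seen.

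The labels do not say that samples came from separate animals, and p-values measure the spread between these samples. Deviations of heart and muscle samples of the same number from their group means correlated at 0.40, 0.42 and 0.25 (Pearson's r across 9337 genes with a mean of at least 10 CPM), and those of different numbers at −0.37 to 0.06. Deviations from a mean of 3 samples cancel out, so that values below 0 for different numbers follow in part from the positive ones. The numbers were taken to pair the samples, which the labels do not state. A fit with the pair as a block was run beside the main one. Alternatives were other scalings, filters, tests and prior counts, a joint fit, a fold threshold and leaving out each sample. Some genes of the lists are counted but not reported here by name.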

Additional observations from a re-analysis of the deposited data

Results flagged for a closer look

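Cdkal1, which encodes a methylthiotransferase that modifies tRNA, was the only gene whose difference between heart and muscle depended on treatment by edgeR's interaction test over 12 samples. The interaction was −2.30 on the log2 scale (SE 0.25, adjusted p = 0.023, and 2.3e-17 by DESeq2). On the scale common to all 24 samples it had 11.3, 13.6 and 13.2 CPM in heart controls and 22.5, 19.6 and 24.9 CPM in muscle controls. After SN-011 it had 11.7, 8.87 and 8.30 CPM in heart and 94.2, 76.4 and 79.6 CPM in muscle. The 3 muscle samples given SN-011 thus lay above all other samples of the comparison, and the log2 difference of heart over muscle was −0.83 in controls and −3.13 with SN-011.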

How the results depend on the processing

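The scale was the choice that mattered most. With library size alone, 9926 genes were higher and 1626 lower (80.4% of log2 fold changes above 0, against 51.9%), and 2 M7core genes were lower. The list medians were then 6.54 for the cardiac sarcomere, −9.79 for the fast skeletal sarcomere, 2.50 for type I interferon targets and 2.20 for M7core, and the M7core score differed by 79.1 in place of 42.7. Signs turned for the medians of the MEF2 factors (0.055), ketone and lactate genes (0.31), citric acid cycle (0.18) and nuclear respiratory chain (0.18). They also turned for the mitochondrially encoded respiratory chain (−0.087 to 0.78) and fibroblast markers (−0.049 to 0.82). Among the named genes, signs turned for Cpt1b (0.37), Oxct1 (0.51), Smpx (0.21), Mef2a (0.56), mt-Nd1 (0.10), mt-Nd2 (0.16), Mavs (0.028), Jak1 (0.24) and Jak2 (0.36). All of these turns follow from the construction of the scale. With a fold change of at least 2 required (glmTreat), 1908 genes were higher and 1518 lower, and 71 and 2 M7core genes. Under the filter of 10 counts in each sample, which drops genes near 0 in 1 tissue, the medians were 3.55 and −9.60 for the cardiac and fast skeletal sarcomere, and turned for developmental genes (2.23) and satellite markers (1.37). The M7core score differed by 21.2 outside the interferon modules and by 1.04 as a mean of log2(CPM + 1). Leaving out a sample gave −11.11 to −10.56 for the fast skeletal median and 4139 to 4646 genes higher and 3978 to 4502 lower. It gave −1.77 to 2.20 for skin and lung markers, and −0.0012 to 0.73 for Bdh1, which turned without muscle control 2. The treatment interaction had 0 to 52 genes, and 158 by DESeq2. Paired by replicate number as a block, 4910 genes were higher and 4695 lower, and the score's pairs differed by 38.4, 39.1 and 50.6 (exact sign-flip test, p = 0.25, the smallest that 3 pairs allow). Besides Mef2a and Cgas, the block ended the call for Jak2 (adjusted p = 0.0568) and made one for Ddx3y (0.0078), and changed no other call among the named genes. Over 175 named genes and 17 alternatives, 2818 of 2916 values kept direction and side of the threshold. There was no value for the mitochondrially encoded list without its own genes, or for interferon genes under the filter of 10 counts in each sample.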

Other observations

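Genes of position along the body axis differed between the tissues, in groups that were put together after their values were seen. Of 39 Hox genes, 23 were tested, of which 19 were lower in heart, 0 were higher and Hoxa2, Hoxb2, Hoxb3 and Hoxb4 did not pass the test, with a median log2 fold change of −4.46. Of all genes, 28.6% were lower and 29.4% higher. Many of the Hox genes were at or near 0 in heart and passed the filter on low counts through muscle alone. Their count and median thus describe the tissues and test nothing further. Hoxc10, which overlaps Hoxc5, had 120.3, 131 and 136 CPM in muscle and 0 counts in heart, at least 937-fold lower in heart. Hoxa10 had 22.6, 23.1 and 28.2 CPM in muscle and 0 counts in heart, at least 179-fold lower, and Hoxc11 was at least 105-fold lower. Of the T-box factors of the limbs, Tbx4, known from the hindlimb, had 0.169, 0.213 and 0.0846 CPM in heart and 3.01, 2.75 and 2.85 CPM in muscle (log2 fold change −4.17, SE 0.45, adjusted p = 1.38e-04). Tbx5, known from the forelimb and the heart, had 28.7, 38.8 and 26.7 CPM in heart and 1.66, 1.33 and 0.749 CPM in muscle (log2 fold change 4.65, SE 0.29, adjusted p = 9.85e-06). Pitx1, the third gene of this group, did not pass the test (log2 fold change 0.26, SE 0.94, adjusted p = 0.835). It had 0.254, 3.19 and 0.254 CPM in heart and 1.05, 1.08 and 0.898 CPM in muscle. Which muscle was sampled is not given in the labels.

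For 9 of 18 genes of the circadian clock sample 3 was the lowest in both tissues, for 3 it was the highest in both, and 6 followed neither order, Nr1d1, Hlf and Clock among them. The share of all genes with either order was not counted, so that these counts are not shown to be particular to clock genes. Per1 had 154, 102 and 32.1 CPM in heart samples 1, 2 and 3 and 256, 133 and 17.3 CPM in muscle samples 1, 2 and 3, and Ciart had 9.35, 8.88 and 2.20 CPM and 12.5, 15.5 and 1.87 CPM. Arntl (BMAL1) had 12.6, 10.7 and 19.8 CPM in heart and 30.0, 24.5 and 54.7 CPM in muscle. The whole group of clock genes was put together after values were seen, and so were these 3 named. Its counts therefore describe these samples and test nothing further. Pdk4 had the order of Per1. The time of day at which tissues were taken was not tested. Between the tissues, 11 of 18 clock genes were lower in heart and 1, Npas2, was higher, with a median of −1.26, next to 28.6% and 29.4% of all genes. Tef had 93.9, 98.5 and 56.9 CPM in heart and 375, 429.7 and 323 CPM in muscle (log2 fold change −2.18, SE 0.23, adjusted p = 1.09e-04).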
